A study of Mus musculus with 2 samples.

Results

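The 7 genes described here are long noncoding RNAs that stay in the nucleus or come from imprinted domains, and they were taken by name (Malat1, Neat1, Meg3, Rian, Mirg, Airn and Kcnq1ot1) from the 32285 genes counted in mouse liver. All 7 were found, and each was followed as summed UMIs (unique molecular identifiers, 1 per captured RNA molecule) in droplet barcodes of 6 size bins (upper bounds not included), and in large barcodes with and without a UMI of the pericentral genes Slc1a2 or Lgr5. The study compared 2 libraries, each from 1 mouse without tumours, infected at the age of 11 weeks. Both mice were Glul f/f, that is, with both copies of the glutamine synthetase gene flanked by recombination sites. The control had been given AAV8-GFP and the other, called GS_KO, AAV8-Cre, 2 weeks before the liver was perfused with collagenase. AAV8 is a viral vector that reaches mainly hepatocytes, and the labels give no promoter for either virus. Hepatocytes and purified non-parenchymal cells were sequenced together, and the labels name the preparation both as whole cells and as nuclei, which bears on every nuclear RNA below.

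There were 166037 barcodes in control, at a median of 352 UMIs, and 175937 in GS_KO, at a median of 304. Barcodes of 1000 or more UMIs, called large here, numbered 1703 and 1834, with medians of 1190 and 1209 UMIs. The matrices shared 8108 barcode sequences, of which 1 was large in both. Hepatocyte markers were present in both libraries. Glul, the targeted gene, stood at 124 CPM (counts per 1000000 UMIs of the pool) in large control barcodes and 31.5 CPM in large GS_KO barcodes, with 270 and 77 UMIs, and the sources do not say which part of it Cre removes. With 1 mouse per group there is no replicate and no test between groups, so every interval below is an exact 95% interval for counting error alone, and every fold is a description of these libraries.

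Malat1 gathers at nuclear speckles, where splicing factors are stored, and Neat1 is the scaffold on which paraspeckles assemble. The genes lie side by side on chromosome 19, 22.0 kb apart, and Malat1 and the long form of Neat1 do not end in an ordinary poly(A) tail: in both, a U-rich and A-rich 3′ end folds into a triple helix that protects the RNA. Meg3, Rian and Mirg are made from the maternal copy of the Dlk1-Dio3 domain on chromosome 12, where Rian hosts small nucleolar RNAs and Mirg hosts microRNAs. Airn and Kcnq1ot1 are made from the paternal copy of their domains and silence neighbouring genes on the same chromosome. Airn is antisense to Igf2r, the receptor that clears insulin-like growth factor 2, and Kcnq1ot1 is antisense to the potassium channel gene Kcnq1.

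In GRCm38 (GENCODE M21), Malat1 covers chr19:5795690-5802672 and Neat1 chr19:5824708-5845478, both on the minus strand. Meg3 covers chr12:109541001-109571726, Rian chr12:109603940-109661716 and Mirg chr12:109729764-109749460, all on the plus strand, with 32.2 kb between Meg3 and Rian and 68.0 kb between Rian and Mirg. Airn covers chr17:12741311-12860136 on the plus strand, and 23.9% of it (28354 bases) lies opposite Igf2r. Kcnq1ot1 covers chr7:143203458-143296549 on the minus strand and lies wholly inside Kcnq1. Whether the authors counted by strand is not stated in any label or header. Without strand, reads from the stretch shared by Airn and Igf2r, or by Kcnq1ot1 and Kcnq1, cannot be told apart.

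The labels describe the captured RNA as polyadenylated, so the 3′ ends of Malat1 and Neat1 are shown here, read from GENCODE M21 transcripts. Capitals mark the first U-rich stretch (TTTCTTTT), the second (TTTGCTTTT) and the A-rich tract around AAAAGCAAA. The Malat1 stretch is chr19:5795982-5796070 and stops 292 bases before the annotated end. The Neat1 stretch is chr19:5824708-5824802 and stops at it.
Malat1: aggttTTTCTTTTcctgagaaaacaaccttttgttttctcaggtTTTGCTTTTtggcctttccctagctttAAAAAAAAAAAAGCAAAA
Neat1: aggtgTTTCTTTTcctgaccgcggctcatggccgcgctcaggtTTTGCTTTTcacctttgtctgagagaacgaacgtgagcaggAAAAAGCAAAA
The A tract of Malat1 holds a run of 12 A, and that of Neat1 a run of 5. All 3 motifs were searched in this order on the transcript's own strand, with only a limited stretch of bases allowed between neighbouring motifs. Under that limit they were found in transcripts of only 2 of 55450 annotated genes, Malat1 and Neat1, from whose ends the motifs had been taken.

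The promoter of Meg3 is shown because Meg3 is the member of its cluster with the most UMIs, and in large barcodes these lay mostly in those with the pericentral genes. The window runs from 250 bases before to 50 after the start listed by RefSeq (GRCm38.p6, chr12:109540746-109541045, plus strand), and capitals mark the only match to the cAMP response element TGACGTCA.
Meg3 promoter: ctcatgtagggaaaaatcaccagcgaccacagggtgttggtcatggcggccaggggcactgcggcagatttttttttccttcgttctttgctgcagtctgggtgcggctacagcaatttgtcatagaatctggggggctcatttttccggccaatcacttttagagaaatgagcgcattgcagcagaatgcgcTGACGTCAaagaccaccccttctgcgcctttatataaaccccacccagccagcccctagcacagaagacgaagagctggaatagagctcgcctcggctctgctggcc
This element, searched on both strands, was found in 588 of 32851 promoter windows of the same length, or 1.79%. No window listed for Malat1, Meg3, Rian, Mirg, Airn or Kcnq1ot1 held the TCF/LEF motif CTTTGAT (3.73% of all windows) or the E-box CACGTG (7.15%). A match, or its absence, describes only the letters of the window. 

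Malat1 was higher in each larger size bin of both libraries. In the control library it stood at 1709 CPM in barcodes of 200 up to 400 UMIs, 2212 at 400 up to 500, 5883 at 500 up to 700, 10378 at 700 up to 1000, 18713 at 1000 up to 1500 and 22678 at 1500 or more. In the GS_KO library the same bins gave 1365, 6075, 11800, 25847, 36254 and 40871 CPM. The 95% intervals of neighbouring bins did not overlap in either library. Neat1 followed the same order, at 24.7, 43.9, 248, 533, 1009 and 1137 CPM in control and 27.1, 133, 292, 555, 769 and 963 CPM in GS_KO. Only its 2 highest control bins overlapped (962 to 1059 and 1045 to 1235 CPM).

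Airn and Kcnq1ot1 had the same shape at lower levels. Airn stood at 0.893, 1.88, 10.2, 21.2, 29.6 and 34.3 CPM in the control bins and 1.46, 11.7, 21.1, 47.2, 77.5 and 82.4 CPM in the GS_KO bins. Its last 2 bins overlapped in their intervals in both libraries (64.9 to 91.9 and 62.9 to 106 CPM in GS_KO), as did the 2 lowest control bins (0.618 to 1.25 and 1.19 to 2.82 CPM) and the control bins of 700 up to 1000 and 1000 up to 1500 UMIs. Kcnq1ot1 stood at 3.86, 7.69, 41.8, 76.5, 124 and 119 CPM and at 5.46, 35.9, 67.0, 121, 167 and 173 CPM. For Kcnq1ot1, too, the 2 highest bins could not be told apart within counting error in either library.

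The RNAs of the Meg3 cluster were rare. Meg3 had 19 UMIs in the control barcodes of 200 up to 400 UMIs (0.499 CPM) and 15 UMIs at 1000 up to 1500 UMIs (8.89 CPM, interval 4.98 to 14.7). The corresponding GS_KO values were 22 UMIs (0.511 CPM) and 8 UMIs (4.66 CPM, interval 2.01 to 9.19). Rian had 17 and 7 UMIs in these control bins and 11 and 4 in those of GS_KO. Mirg had 2 and 0, and 5 and 3. Their UMIs came in clumps: the 5 Meg3 UMIs of the GS_KO bin of 1500 or more UMIs came from 1 barcode, so that the true uncertainty of Meg3 and Rian is larger than the counting intervals.

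**Figure D1:**
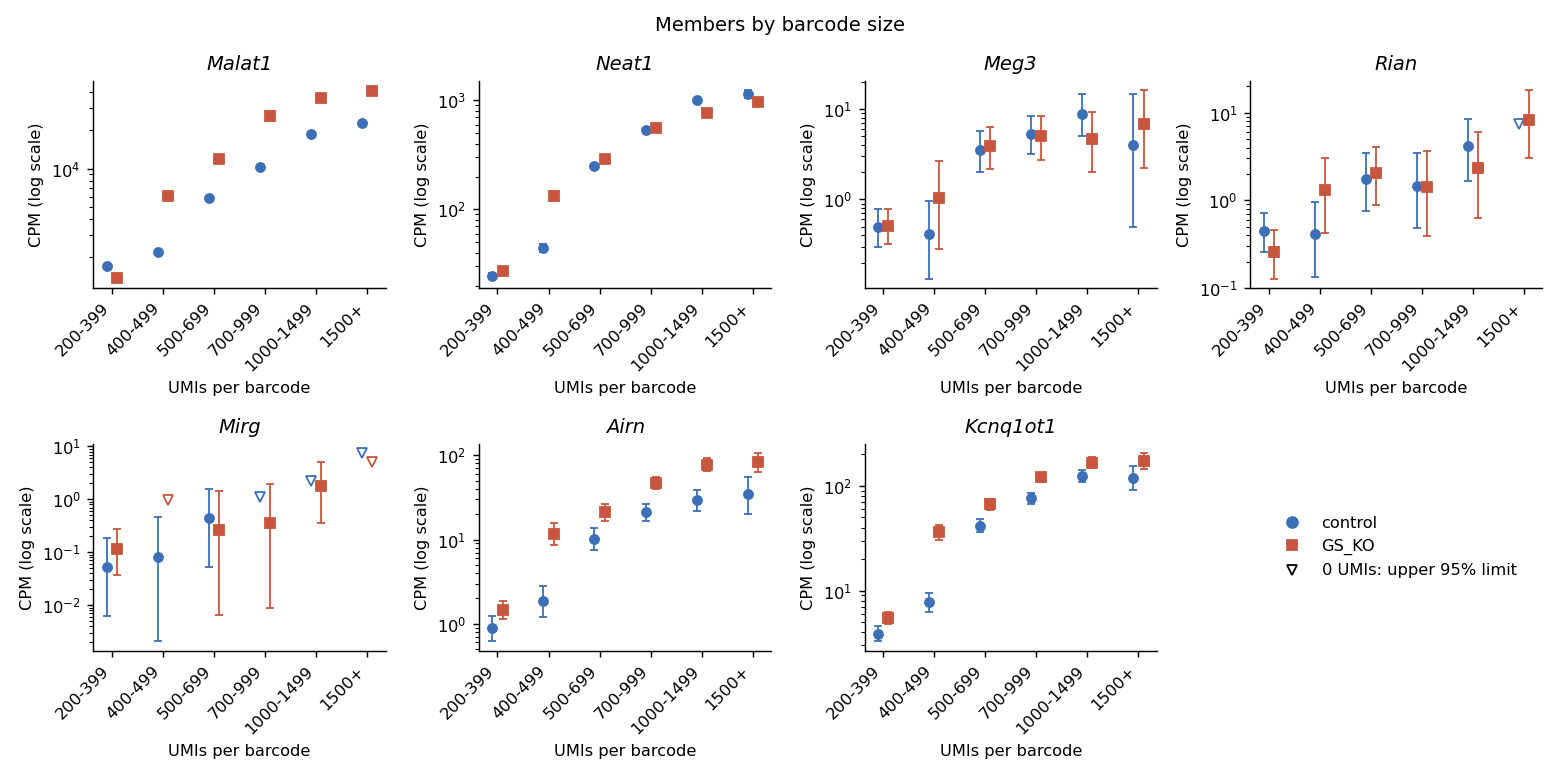
Level of each long noncoding RNA in 6 bins of UMIs per barcode, as CPM of the summed barcodes on a log axis. Points are 1 library each, bars are exact 95% Poisson intervals (smaller than the symbols for Malat1) and open triangles give the upper limit where no UMI was seen. Malat1, for example, runs from 1709 to 22678 CPM in control barcodes and from 1365 to 40871 CPM in GS_KO barcodes.

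Set against the smallest barcodes, large barcodes held more of every member that could be measured. In the control library Neat1 was 42.1-fold higher, Airn 34.4-fold (22.4 to 53.6), Kcnq1ot1 31.9-fold (26.0 to 39.3), Meg3 15.6-fold (7.62 to 31.7), Malat1 11.5-fold (11.3 to 11.6) and Rian 7.18-fold (2.52 to 18.2). In the GS_KO library Airn was 54.0-fold higher, Kcnq1ot1 30.9-fold, Neat1 30.5-fold, Malat1 27.6-fold, Rian 16.01-fold and Meg3 10.4-fold. These 6 members had at least 20 UMIs, and all 6 were 2-fold or more higher in both libraries. The same held for 36.7% of 12330 genes in control and 41.1% of 13208 in GS_KO, so the count alone says little. By size of the difference, in the control library Neat1 ranked 37th of the 12330 genes, Airn 52nd, Kcnq1ot1 66th, Meg3 304th, Malat1 514th and Rian 982nd. In the GS_KO library Airn ranked 44th of 13208, Kcnq1ot1 107th, Neat1 108th, Malat1 143rd, Rian 394th and Meg3 771st.

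The contrast between sizes depends on what the CPM is set against. Over genes with at least 50 UMIs in both pools, the median gene was itself higher in large barcodes, by 0.71 (log2) in control and 1.01 in GS_KO. Relative to that median gene, Malat1 was higher by 2.81 in control and 3.78 in GS_KO, and all 6 members stayed 2-fold or more higher in both libraries. The share of UMIs from mitochondrial genes went the other way, from 9.32% in control barcodes of 200 up to 400 UMIs to 2.67% at 1500 or more, and from 8.38% to 1.81% in the GS_KO library. The cytoplasmic mRNA of albumin, Alb, went from 41519 to 18413 CPM and from 42165 to 11547 CPM. The part of barcode content, cytoplasm against nucleus, in these values was not tested.

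Genes that work with these RNAs, or share their place in the nucleus, were read beside them. Of 12 paraspeckle protein genes, 6 were 2-fold or more higher in large control barcodes and 8 in large GS_KO barcodes, with medians of 1.02 and 1.25 (log2) beside 0.43 and 0.59 for all genes. Pspc1, a core paraspeckle protein, was higher by 3.19 and 2.31 (log2), while Nono, its partner, was lower by 0.50 in control and differed by −0.06 in GS_KO, where the interval spanned 0. Of 11 nuclear speckle protein genes, 2 and 3 passed 2-fold higher, with medians of 0.69 and 0.74. Of 4 liver mRNAs known to be held in the nucleus, 3 and 4 passed it, led by Mlxipl, which encodes the sugar-sensing factor ChREBP, at 3.15 and 3.49. Of 14 abundant cytoplasmic hepatocyte mRNAs none passed it, and their medians were −1.05 and −1.29.

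Not every long noncoding RNA followed the size order. Of 22 others, 18 were measured in the control library and 6 of these passed 2-fold higher, with a median of 0.30 (log2). In the GS_KO library 11 of 20 did, with a median of 1.26. Ftx and Jpx, which neighbour Xist in the X-inactivation centre, were higher by 3.99 and 3.61 in large control barcodes, and Gm26917 by 3.87. Hnf4aos, antisense to the liver factor Hnf4a, was higher by 3.23. Gas5, a host of small nucleolar RNAs, was lower by 0.59 (interval −0.90 to −0.30) in control and differed by 0.12 (−0.12 to 0.34) in GS_KO. 

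Genes with the most similar profile were picked by Pearson correlation of log2(CPM + 1) over the 12 pools (6 bins in 2 libraries) among 11078 genes with at least 200 UMIs. For Malat1 these were Spred2, Nr2c2 and Ccdc141 (r = 0.998, 0.997 and 0.997), and for Neat1 they included Sox5 and Rfx3 (0.999 and 0.998). For Airn they were Gm11266, Hdac8 and Mir99ahg (0.995 each), and for Kcnq1ot1 Mast4, Plce1 and Setbp1 (0.995, 0.995 and 0.994). All pools share the size order, so values this high are a description of that order. Meg3, Rian and Mirg had 143, 80 and 15 UMIs in the pools and were not compared.

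Between the libraries, Malat1 and Airn were higher in large GS_KO barcodes and Neat1 was not. Malat1 stood at 19613 CPM in control (interval 19427 to 19799) and 37630 CPM in GS_KO (37387 to 37874), a 1.92-fold difference. Airn stood at 30.7 CPM (23.8 to 38.99) and 79.0 CPM (68.2 to 91.0), 2.57-fold higher in GS_KO (1.94 to 3.45). Kcnq1ot1 was 1.37-fold higher (1.17 to 1.60), at 123 and 169 CPM. Neat1 was lower in GS_KO, at 1038 and 827 CPM, by 0.33 on the log2 scale (interval −0.42 to −0.24). Meg3 had 17 and 13 UMIs, Rian 7 and 10 and Mirg 0 and 3, too few to give a direction. Airn was the only one of 5 measured members past 2-fold, where 12.8% of 10192 genes were 2-fold or more higher in GS_KO and 5.6% lower. Mitochondrial genes summed to 36442 CPM in large control barcodes and 24146 CPM in large GS_KO barcodes, with all 13 intervals below 0. The 14 abundant cytoplasmic hepatocyte mRNAs summed to 68376 and 58812 CPM, with 9 intervals below 0 and 5 above. The 4 mRNAs held in the nucleus summed to 926 and 870 CPM. The part of barcode content in the differences of the members was not tested.

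Other cell types differed between these pools as well. Markers of Kupffer cells, the liver's resident macrophages, summed to 88.0 CPM in large control barcodes and 565 CPM in large GS_KO barcodes, and all 10 were 2-fold or more higher there. Lymphocyte and plasma cell markers summed to 110 and 279 CPM, with 4 of 11 measured, and the 5 cholangiocyte markers to 0 and 15.6 CPM. Stellate markers (258 and 236 CPM) and sinusoidal endothelial markers (126 and 112.1 CPM) differed little. Hepatocyte markers summed to 61677 and 40920 CPM, and the pericentral ones among hepatocytes to 7975 and 3630 CPM. Large barcodes with at least 3 UMIs of Kupffer markers numbered 24 and 135, and they held less Malat1 than the rest, at 14723 and 21851 CPM. In large barcodes without 3 UMIs of any of these 5 lists, 1602 in control and 1630 in GS_KO, Malat1 stood at 19882 and 39499 CPM, Airn at 30.8 and 79.6 CPM and Neat1 at 1056 and 844 CPM, and the differences between libraries were as large there.

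The difference in Malat1 had a different sign in the lowest of the 6 bins. At 200 up to 400 UMIs Malat1 was lower in GS_KO, by 0.32 on the log2 scale (interval −0.34 to −0.31). In the bins above, GS_KO over control was 2.75-fold, 2.01-fold, 2.49-fold, 1.94-fold and 1.80-fold. Neat1 was 1.10-fold and 3.02-fold higher in GS_KO in the lowest 2 bins, 1.18-fold and 1.04-fold in the next 2, and lower in the top 2, at 0.762 and 0.847 of the control level. Airn was higher in GS_KO in all 6 bins, by 1.64-fold, 6.23-fold, 2.08-fold, 2.23-fold, 2.62-fold and 2.40-fold, and Kcnq1ot1 in all 6 by 1.41-fold, 4.67-fold, 1.60-fold, 1.58-fold, 1.34-fold and 1.45-fold. No member passed 2-fold at 200 up to 400 UMIs, where 13.2% of genes were 2-fold or more higher and 4.25% lower.

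The bin of 400 up to 500 UMIs, which gave the largest folds for these 4 RNAs, held different shares of the 2 libraries. It took in 17.01% of the barcodes in control but 4.99% in GS_KO, and the control median over all barcodes, 352 UMIs, lay nearer to it than the GS_KO median of 304. Mitochondrial UMIs were 8.96% of that bin in the control library, near the 9.32% of the bin below, and 6.96% in the GS_KO library, against 8.38% below. The part of this in the folds of that bin was not tested.

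**Figure D2:**
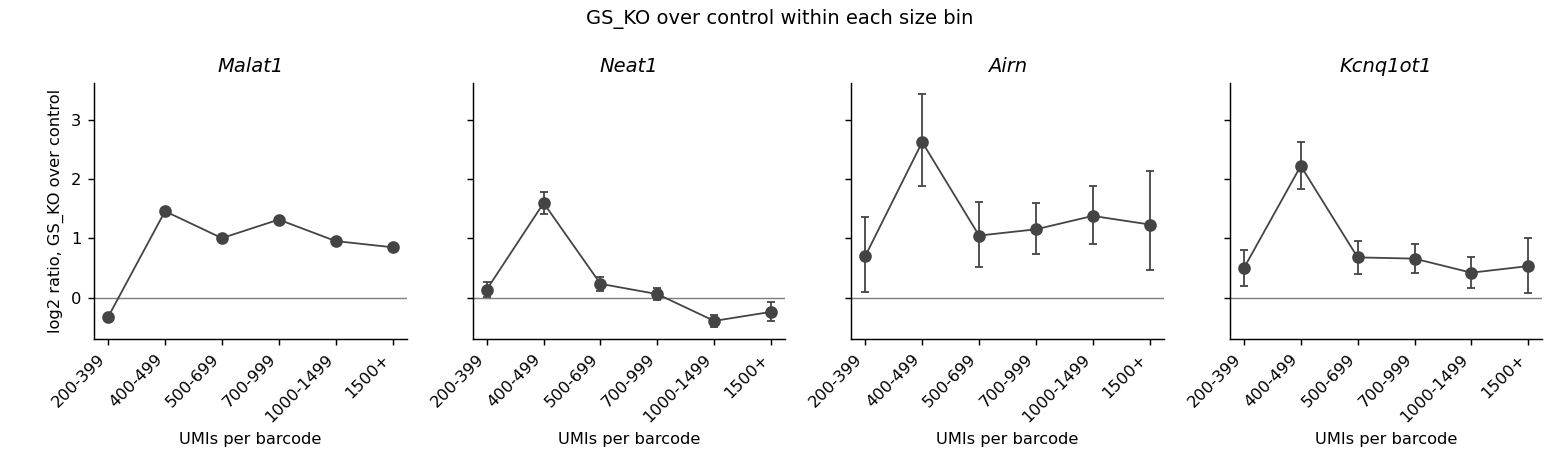
The log2 ratio of CPM, GS_KO over control, within each bin of UMIs per barcode for the 4 RNAs with enough UMIs. Bars are exact 95% conditional intervals from counting error. Airn and Kcnq1ot1 lie above 0 in every bin, Malat1 lies at −0.32 in the lowest bin and above 0 elsewhere, and Neat1 crosses from 1.60 at 400 up to 500 UMIs to −0.39 at 1000 up to 1500.

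Counted barcode by barcode, the Malat1 difference ran through most large barcodes. After each was thinned at random to 1000 UMIs, the median was 19 Malat1 UMIs in control (5th to 95th percentile 2 to 37) and 36 in GS_KO (12.7 to 65). At least 1 Malat1 UMI was present in 98.3% of control and 99.3% of GS_KO barcodes. Barcodes with 0 to 3 Malat1 UMIs made up 6.87% in control and 1.91% in GS_KO. Neat1 was present in 57.0% and 53.1%, Kcnq1ot1 in 11.5% and 15.3%, and Airn in 2.82% (interval 2.09 to 3.72) and 6.38% (5.30 to 7.60). Unthinned, Airn was present in 3.52% and 8.29%.

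Among barcodes of 500 or more UMIs, thinned to 500, Malat1 counts formed a low and a high group in GS_KO. There, 31.6% of 11871 barcodes held 0 or 1 Malat1 UMI, 8.91% held 4 to 7 and 12.5% held 12 to 15. In the control library the shares fell to a shoulder without a plain second peak. There, 41.3% of 13692 barcodes held 0 or 1, 18.6% held 4 to 7 and 6.49% held 12 to 15. The GS_KO median of 8 UMIs therefore averages over unlike barcodes, and the control median of 2 over a wide spread.

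**Figure D3:**
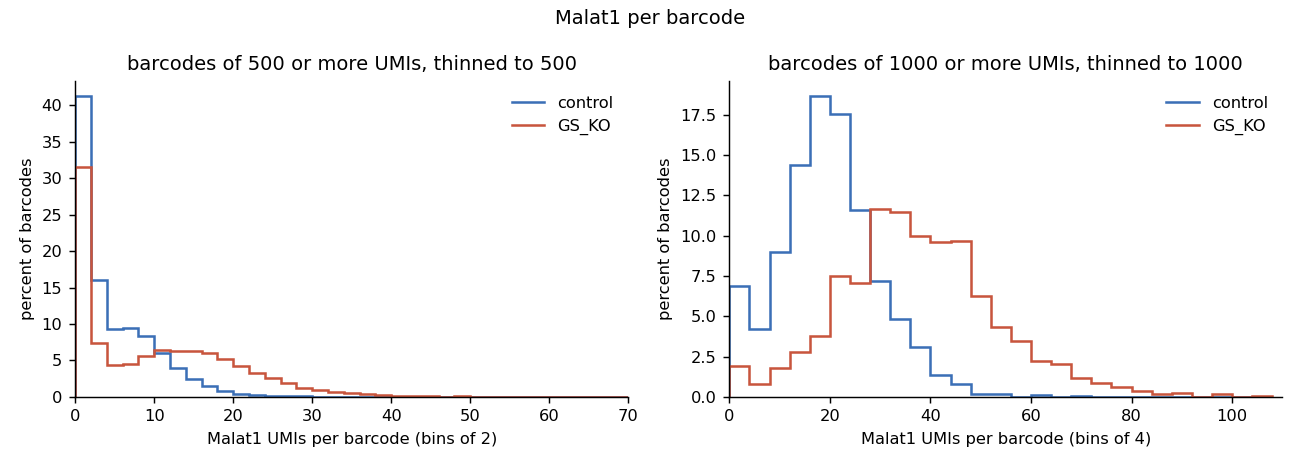
Share of barcodes (percent, vertical axis) by their number of Malat1 UMIs (horizontal axis), after thinning every barcode to 500 UMIs (left) or 1000 UMIs (right). At 1000 UMIs the medians are 19 in control and 36 in GS_KO, and at 500 UMIs both libraries have a peak at 0 or 1 UMI (41.3% and 31.6% of barcodes), with a separate broad hump in GS_KO.

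Slc1a2, a glutamate transporter, and Lgr5, a Wnt-pathway receptor, are made by the hepatocytes next to the central vein. A UMI of either was present in 353 of 1703 large control barcodes and 203 of 1834 large GS_KO barcodes. The medians of UMIs were 1224 with and 1182.5 without in control, and 1264 and 1203 in GS_KO. Other markers of this zone moved with the split: 5 of 9 measured in control and 5 of 8 in GS_KO had an interval above 0. Glul was higher by 1.02 and 1.80 (log2). In GS_KO, Kupffer markers also differed, at 720 CPM with and 544 CPM without, while in control they stood at 54.3 and 97.0 CPM. Lymphocyte and plasma markers stood at 38.6 CPM with and 311 without in GS_KO, with intervals below 0 for 3 of 4 measured, and at 139 and 102 CPM in control. Their part in the values below was not tested.

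Among large barcodes, most UMIs of the Meg3 cluster were in those with Slc1a2 or Lgr5. Meg3 had 15 UMIs with and 2 without in control, or 32.6 CPM (18.2 to 53.7) and 1.16 CPM (0.141 to 4.20), a 28.0-fold difference (6.52 to 253). In GS_KO it had 10 with and 3 without, or 35.1 CPM (16.8 to 64.6) and 1.39 CPM (0.287 to 4.06), 25.3-fold (6.51 to 143). Of these 10 UMIs, 5 came from 1 barcode of 1500 or more UMIs, so the interval is too narrow. Rian had 7 UMIs with and 0 without in control, at least 8.72-fold higher when the 0 is set to 3 counts over the group, and with a lower 95% limit of 5.39-fold when counting error is taken into account. In GS_KO it had 7 and 3, 17.7-fold (4.04 to 106). All 3 Mirg UMIs of GS_KO large barcodes were in barcodes with Slc1a2 or Lgr5, and control had none in either. No difference in Meg3 with Slc1a2 or Lgr5 was detectable between the libraries (1.08-fold, 0.433 to 2.57), and the interval allows over 2-fold in either direction.

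Airn was the other member that went with the split. In control it stood at 84.7 CPM (60.2 to 116) with and 16.3 CPM (10.8 to 23.5) without, 5.21-fold (3.12 to 8.78) from 39 and 28 UMIs. In GS_KO it stood at 260 CPM (204 to 326) and 55.1 CPM (45.7 to 66.0), 4.71-fold (3.48 to 6.35) from 74 and 119 UMIs. It ranked 9th from the highest of 8150 measured genes in control and 9th of 8915 in GS_KO. Slc1a2 and Lgr5, which made the split, were not left out of the ranking. Airn was the only one of 4 members with at least 20 UMIs past 2-fold, where 1.62% of genes in control and 4.17% in GS_KO were 2-fold or more higher with Slc1a2 or Lgr5.

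Malat1, Neat1 and Kcnq1ot1 differed little between these barcodes. Malat1 was 1.03-fold and 1.02-fold higher with Slc1a2 or Lgr5, and scaling to the median gene turned this to −0.01 (log2) in both libraries. Neat1 was at 0.911 (0.819 to 1.01) of its level without in control and 1.10-fold (0.961 to 1.25) in GS_KO. Kcnq1ot1 was at 1.07-fold (0.791 to 1.44) and 0.748 (0.518 to 1.05). A difference of over 1.5-fold lay outside all of these intervals except that of Kcnq1ot1 in GS_KO, which allowed a level as low as 0.518.

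After thinning to 1000 UMIs, so that depth could not differ, Airn was present in 9.29% of 312 control barcodes with Slc1a2 or Lgr5 and 1.37% of 1391 without. In GS_KO these shares were 21.9% of 160 and 4.90% of 1674. Meg3 was present in 1.92% and 0.144% in control and 1.88% and 0.119% in GS_KO, that is, in 6, 2, 3 and 2 barcodes. In large GS_KO barcodes with at least 3 UMIs of Kupffer markers, 135 in number, Airn had 14 UMIs, or 73.6 CPM (40.3 to 124), close to the 79.6 CPM of barcodes without such markers. For Meg3 the pools with markers of other cells were too small to compare, with an upper limit of 19.4 CPM in these 135 barcodes beside 5.55 CPM in barcodes without markers.

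The libraries were also compared within each side of the split, a choice made after seeing the data. Among large barcodes with Slc1a2 or Lgr5, Airn was 3.07-fold higher in GS_KO (2.06 to 4.65), where 9.95% of 5337 genes were 2-fold or more higher. Among those without, it was 3.39-fold higher (2.23 to 5.32), where 12.7% of 9824 genes were. Malat1 was 1.92-fold higher on both sides. Neat1 was at 0.933 (0.796 to 1.09) of its control level with Slc1a2 or Lgr5 and 0.772 (0.723 to 0.825) without. Its lower level in GS_KO was thus detectable only without them. Kcnq1ot1 was at 0.997 (0.644 to 1.53) with and 1.43-fold (1.21 to 1.70) without.

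The same split in barcodes of 500 up to 1000 UMIs, which share none with the large ones, was added after the large barcodes had been seen. Meg3 had 21 UMIs with and 13 without in control, 15.95-fold (7.62 to 34.7), and ranked 7th of 10665 genes. In GS_KO it had 14 and 15, 18.4-fold (8.21 to 40.8), and ranked 4th of 11146. Airn was 4.16-fold higher (2.72 to 6.25) in control and 7.61-fold (5.55 to 10.3) in GS_KO. In narrower bins, Airn in control was 1.95-fold (0.675 to 4.63) at 500 up to 700 UMIs, from 6 and 40 UMIs. At 700 up to 1000 UMIs it was 4.98-fold (3.00 to 8.17). In GS_KO these folds were 5.53 (2.80 to 10.1) and 7.30 (5.00 to 10.5). Over 500 up to 1000 UMIs, Rian was 22.2-fold and 14.0-fold higher in control and GS_KO, from 13 and 12 UMIs in all. Malat1 was 1.46-fold and 1.398-fold higher with Slc1a2 or Lgr5 in these barcodes, and Neat1 1.51-fold and 1.28-fold, while the sides of this split also differed in other ways. Barcodes with Slc1a2 or Lgr5 were larger, at medians of 686 against 627 UMIs in control and 708 against 637 in GS_KO. In control they held less of the Kupffer markers (118 against 299 CPM, 7 of 10 intervals below 0), lymphocyte and plasma markers (31.6 against 147 CPM) and stellate markers (303 against 538 CPM). In GS_KO the Kupffer markers stood at 1498.9 and 1866 CPM, and the part of size or other cells in these folds was not tested. Other pericentral markers did not plainly follow this split in control. Of 10 measured there, 3 had an interval above 0 and 3 below, and the list summed to 11468 CPM with and 11822 CPM without. In GS_KO 5 of 10 had an interval above 0 and 1 below, at 4894 and 4083 CPM. Of all genes, 4.25% in control and 7.86% in GS_KO were 2-fold or more higher.

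**Figure D4:**
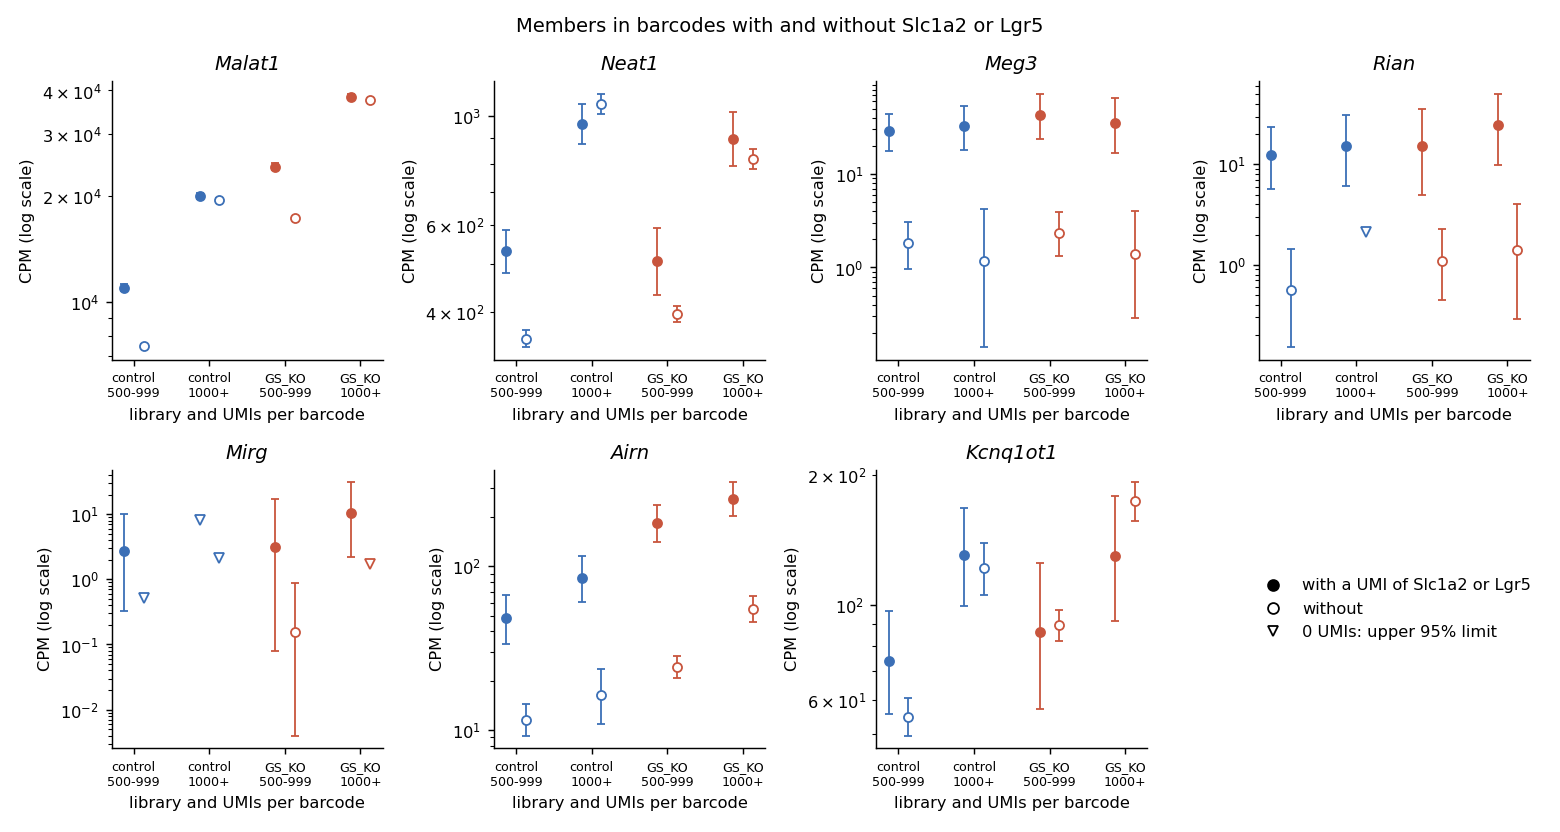
CPM (log axis) of the 7 RNAs in barcodes with (filled) and without (open) a UMI of Slc1a2 or Lgr5, for each library in barcodes of 500 up to 1000 and of 1000 or more UMIs. Bars are exact 95% Poisson intervals and open triangles the upper limit where no UMI was seen. Meg3, Rian and Airn lie apart in every pair for which both values exist, such as Airn at 84.7 against 16.3 CPM in large control barcodes, while Neat1 and Kcnq1ot1 overlap in large barcodes.

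Splits on the other zonal genes of the marker lists were added after seeing the data. Barcodes of 500 or more UMIs were split on the presence of 1 gene at a time, for 11 pericentral genes other than Slc1a2 and Lgr5 and for 10 periportal genes. Airn had an interval above 1 for 3 of the 11 pericentral genes in control and 6 in GS_KO, and below 1 for 3 and 6 of the 10 periportal genes. An exception was Pck1, the periportal enzyme of glucose synthesis, with Airn at 1.53-fold (1.21 to 1.96) in GS_KO. Meg3 had an interval above 1 for 4 and 6 pericentral genes and for no periportal gene, and an interval below 1 for pericentral Rgn in control (0.386, 0.210 to 0.697). In each library Kcnq1ot1 had an interval above 1 for 1 pericentral and 5 periportal genes, and below 1 for 2 and 1. Malat1 had intervals on both sides of 1 in both zones. In control they lay above 1 for 7 pericentral and 5 periportal genes, and in GS_KO for 8 and 6. They lay below 1 for 3 genes of each zone in each library. Some of these genes were present in nearly all barcodes or very few, which limits what such a split can show.

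Glul itself was also used to split barcodes. In barcodes of 500 or more UMIs, Meg3 was 6.33-fold higher with Glul in control and 9.31-fold in GS_KO, and Airn 2.66-fold and 3.14-fold. In large barcodes the log2 ratio of Airn on Glul was 1.00 in control (0.03 to 1.82) and 0.20 in GS_KO (−1.03 to 1.08). On Slc1a2 or Lgr5 that ratio was 2.37 and 2.24. No difference on Glul was detectable in GS_KO at this depth. Glul is the targeted gene, and it was present in 7.82% of control and 2.07% of GS_KO barcodes of 500 or more UMIs. A split on Glul may therefore not sort the 2 libraries alike. Tbx3, a Wnt-dependent pericentral factor, gave 0 Meg3 UMIs in 275 control barcodes, with an upper limit of 3.16-fold, and 4 in 169 GS_KO barcodes, 5.88-fold (1.52 to 16.3). For Airn it gave 2.66-fold and 2.28-fold. Hal, the histidine-degrading enzyme of periportal cells, gave 0.710 and 0.493 for Airn. Barcode size was not matched in these splits either, and its part in the folds was not tested.

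**Figure D5:**
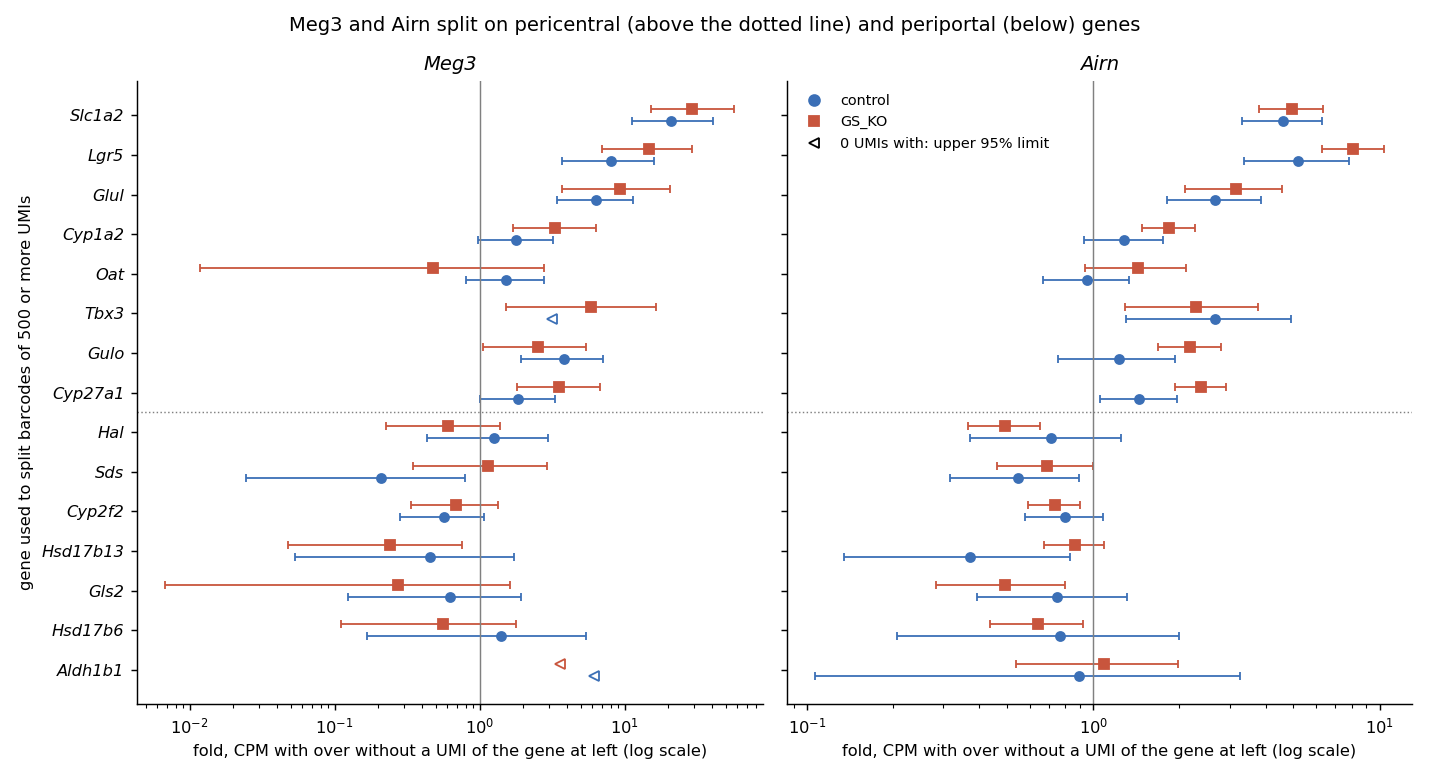
Fold of CPM in barcodes of 500 or more UMIs with over without a UMI of each zonal gene found in 1 to 50% of barcodes of both libraries, Slc1a2 and Lgr5 included (log axis), for Meg3 (left) and Airn (right). Points are 1 library each, bars are exact 95% conditional intervals, and open triangles give the upper limit where no UMI was seen with the gene. The Airn folds reach 8.10 for Lgr5 in GS_KO and lie at 0.493 for Hal in GS_KO. Barcodes with and without each gene were not matched for size.

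Rian was more often present in barcodes with Meg3 than in those without, although most barcodes with Meg3 held no Rian. Among barcodes of 500 or more UMIs, 38 in control held Meg3, and 7 of these held Rian, against 8 of 13654 without Meg3. In GS_KO 7 of 26 held Rian, against 12 of 11845. Mirg was present in 2 of the 26 GS_KO barcodes with Meg3, against 3 of 11845, and in none of the 38 in control. Slc1a2 was present in 25 of the 38 control barcodes with Meg3 and in 1129 of the 13654 without, and in 12 of 26 and 447 of 11845 in GS_KO. Airn was present in 5 of 38 and 7 of 26 barcodes with Meg3, against 162 of 13654 and 333 of 11845 without. Barcodes with Meg3 were larger, with medians of 786.5 and 799.5 UMIs against 663 and 671, and Kcnq1ot1 was present in 3 of 38 and 3 of 26, against 650 of 13654 and 913 of 11845.

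Protein-coding genes of the same domains differed in how many UMIs they gave. In the Meg3 domain Dlk1, Rtl1 and Dio3 had 0 UMIs in large barcodes of both libraries. In the Airn domain, Igf2r stood at 31.6 CPM in control and 31.5 CPM in GS_KO, a log2 difference of −0.01 (−0.49 to 0.49), while Airn was 2.57-fold higher. Slc22a3, an organic cation transporter of the same domain, stood at 14.7 CPM (32 UMIs) in control and 5.32 CPM (13 UMIs) in GS_KO, lower by 1.43 on the log2 scale (−2.52 to −0.49). Like Airn it was higher in barcodes with Slc1a2 or Lgr5, at 52.1 against 4.65 CPM in control (24 and 8 UMIs) and 28.1 against 2.32 CPM in GS_KO (8 and 5 UMIs). The 13 GS_KO UMIs lie under the minimum of 20 used for counts. Among large barcodes with Slc1a2 or Lgr5 alone, the difference of Slc22a3 between libraries was −0.83 (log2), with an interval that spanned 0 (−2.26 to 0.31).

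In the Kcnq1ot1 domain, Kcnq1 had 2 UMIs in large control barcodes and 1 in GS_KO, beside 269 and 412 of Kcnq1ot1. Slc22a18, a transporter of that domain, was higher in GS_KO by 0.55 (log2, 0.19 to 0.91), and Cd81, a membrane protein, by 0.29 (0.02 to 0.55). Cdkn1c, the growth inhibitor of the domain, had 5 and 3 UMIs. Among 14 other imprinted genes only 3 were measured between the libraries, and Peg3, a paternally expressed zinc finger gene, was lower in GS_KO, at 75.2 and 31.9 CPM or by 1.23 (log2, −1.64 to −0.84). Gnas and Dcn differed by 0.19 and −0.06 with intervals that spanned 0. Of the 5 genes beside Malat1 and Neat1, 3 were measured, each with an interval that spanned 0, and Frmd8 and Slc25a45 differed between libraries by 0.07 each (log2), while Malat1 differed by 0.94.

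Between the libraries, the paraspeckle protein genes did not share the direction of Neat1 as a group. None of 12 passed 2-fold in large barcodes and their median was 0.03 (log2), beside 0.04 for all genes. Pspc1 was lower in GS_KO by 0.53 (−0.84 to −0.22). None of 11 speckle protein genes passed 2-fold, and their median was −0.06. Pvt1, the long noncoding RNA beside Myc, was higher in GS_KO by 2.57 (2.00 to 3.25), at 11.9 and 72.0 CPM, the largest difference among the 18 other long noncoding RNAs measured.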

How the data were processed

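Per the file headers, the authors counted reads with Cell Ranger 8.0.0 and deposited 1 matrix of raw UMI counts per library, whole numbers per gene and barcode with no normalization. Per the submitters' processing notes the build was mm10. How barcodes were selected, and whether introns or strand were used, was not stated there. The members and gene lists were chosen with earlier results of these data known, so their ranks among all genes only describe these data.

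Counts were summed over barcodes of each bin or group and scaled to CPM. Log2 ratios had 0.5 counts added to each sum, and folds without added counts are given with exact conditional 95% intervals. Levels have exact Poisson intervals and shares Clopper-Pearson intervals. UMIs of 1 barcode are not independent, so all are too narrow. Genes needed at least 20 UMIs in both pools together to be counted, and 2-fold was the call. The 7 members are all given. The 3 genes most like each member with 200 or more UMIs were named by correlation, except that some genes are not reported here. Calculations were tested on simulated data drawn as independent counts, without the clumping of UMIs within barcodes. The tools were matplotlib 3.10.9, numpy 2.4.6, scipy 1.17.1 and pandas 2.3.3 under Python 3.11.15. Positions came from GENCODE M21 (GRCm38) and promoters from RefSeq (GRCm38.p6), the same build; Neat1 had no promoter entry. No doublet caller was run.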

Additional observations from a re-analysis of the deposited data

How the results depend on the processing

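No paired analysis was possible because each group is 1 library and the labels give no shared replicate numbers. The counts of members 2-fold or more higher stayed within 1.5 times of the reported count in 52 of 57 comparisons with an alternative. Within that range, the 6 members 2-fold or more higher in large than in the smallest barcodes became 4 in control at 2000 or more UMIs and 4 in GS_KO against barcodes of 400 up to 500 UMIs. The other 5 all concern barcodes with against without Slc1a2 or Lgr5. In control the count of 1 became 0 with large barcodes of at least 1500 or at least 2000 UMIs, where few barcodes remain, and 2 in barcodes of 500 up to 1000 UMIs. In GS_KO it became 0 with a split on Glul and 2 in barcodes of 500 up to 1000 UMIs. Of values for single genes and shares of genes, 293 stayed within their interval or share, 84 moved, and 10 whose reported interval excluded 0 turned in sign. All 10 were the small Malat1 difference of that split. In control (0.04, log2) it became −0.00564 with scaling by the median ratio, −0.018 at 2000 or more UMIs, −0.02996 with over 5% mitochondrial UMIs left out, −0.028 with a split on Slc1a2 alone and −0.0566 on Glul. In GS_KO (0.03) it became −0.0135 with the median ratio, −0.0784 at 1500 or more UMIs, −0.124 at 2000 or more, −0.0159 on Slc1a2 and −0.0317 on Glul. The cause was not tested.

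Between libraries in large barcodes, Airn ranged from 1.23 to 1.74 (log2) over 10 alternatives, Malat1 from 0.73 to 1.00 and Neat1 from −0.43 to −0.10. They included free RNA taken off as the profile of the smallest barcodes at the median barcode size (27.5% of large control UMIs and 22.8% of GS_KO). Meg3 was −0.54 and reached 0.58 at 1500 or more UMIs, with an interval that spans 0 in the reported fit, so depth does not give it a direction. The size contrast of Malat1 in GS_KO dropped from 4.79 to 2.63 against barcodes of 400 up to 500 UMIs, for which the cause was not tested. In control Meg3 with against without Slc1a2 or Lgr5 dropped from 4.53 to 1.86 at 1500 or more UMIs, where 2 UMIs remain. Shares of all genes past 2-fold depended on the minimum of UMIs: between libraries in large barcodes 18.4%, and 37.6% with no minimum; in the smallest barcodes 17.5% and 33.2%; for the split 5.20% and 18.9% in control (0.569% at 100 UMIs) and 9.81% and 29.96% in GS_KO (2.39%). Splits at 500 up to 1000 UMIs, on Glul, and of the libraries on each side of the split were chosen after seeing the data.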

Other observations

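The matrices also hold 7544 control and 11607 GS_KO barcodes under 200 UMIs, which lie outside the bins above. In control, Malat1 stood at 2230 CPM (2148 to 2315) in them, against 1709 CPM at 200 up to 400 UMIs. Neat1 stood at 84.0 CPM (68.6 to 102), against 24.7 CPM, and Kcnq1ot1 at 15.3 CPM (9.24 to 24.0) from 19 UMIs, against 3.86 CPM. In GS_KO no such difference was detectable: Malat1 stood at 1401 CPM (1349 to 1454), against 1365 CPM, Neat1 at 32.8 CPM (25.2 to 41.8), against 27.1 CPM, and Kcnq1ot1 at 7.68 CPM (4.30 to 12.7), against 5.46 CPM. Between the libraries, Malat1 was lower in GS_KO in these barcodes, as it was at 200 up to 400 UMIs. Airn had 1 UMI in control and 4 in GS_KO. Mitochondrial UMIs were 10.9% in control and 9.24% in GS_KO.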
